A study of Drosophila melanogaster with 31 samples.

Results

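The comparison described here is the change in transcript level between the second and the third collection of wild-type *Drosophila melanogaster* embryos. It was measured in cells sorted for GFP from an *ato* reporter, which also held transcripts of genes known from other tissues, as given below. The comparison sets 4 arrays of GFP+ cells sorted at t3 (7.75 to 8.75 h after egg laying) against 4 arrays of GFP+ cells sorted at t2 (6.75 to 7.75 h), and was chosen by the titles of those 8 samples among the 31 of the series. All 11982 genes that are named alone by at least 1 of 13647 probe sets were included, so no gene was selected for its change. Both groups carried the same transgene, *ato*GFP.7, in the labelled background w118. In it an upstream fragment of *ato* drives GFP, and the study's methods describe a single viable line. Each array measured RNA from pooled, dissociated embryos. Hours are those the labels give for 25C, although the embryos matured at 18C. GFP− cells, the rest of the embryo, were sorted from wild-type embryos of the same line, with 3 arrays at t3 and 4 at t2, and a t1 collection (5.75 to 6.75 h) of 4 arrays of each class. An *ato* mutant at t1 was part of the fit and is not described here.

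*ato* encodes a proneural basic helix-loop-helix protein that selects the sensory organ precursors of chordotonal organs, the stretch and sound receptors of insects. A precursor divides to give a neuron and its support cells, and the neuron then grows a modified cilium in which the mechanical stimulus is detected. Proneural genes are known to be switched on transiently, and Notch signalling in neighbouring cells restricts them through the *Enhancer of split* genes. Proneural activity also turns on intermediate factors such as *sens*, *Rfx* and *fd3F*. The cilium itself is built by intraflagellar transport, in which the IFT-B and IFT-A complexes are carried along microtubules by kinesin and dynein motors. The reporter is also active in other *ato*-expressing cells, the larval eye primordium among them, so the GFP+ cells are not a single cell type.

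Levels are log2 intensities as deposited by the authors, and a difference of 1 is a 2-fold change. A gene was called when limma gave a change of at least 1.5-fold with a Benjamini-Hochberg adjusted p of at most 0.01 over all 18769 probe sets, and all adjusted p below are from that fit. Errors beside a difference are standard errors. The 4 t2 arrays each correlated at 0.998 with the mean of the others, and the t3 arrays at 0.994 to 0.998. GFP+ t3 replicate 3 was the lowest of these. It had lower levels of ciliary genes and higher levels of early mesoderm genes than the other t3 arrays, as given below for each group, and counts over all genes are given with and without it, as are list counts that changed. For the t2 GFP− replicate 4 the labels conflict, the source name calling it GFP+. It was placed by its title and enters only the comparison with GFP− cells. The study describes independent samples. No label says that the embryos were separate collections, so the p-values measure the spread between these samples, which may be in part technical.

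At t3, 2042 genes were higher than at t2 in GFP+ cells (17.0% of those tested) and 1531 were lower (12.8%). A further 13 genes had probe sets called in both directions. Without t3 replicate 3 the counts were 2075 (17.3%) and 1601 (13.4%), and 1978 and 1493 genes were called with and without that array. The largest changes were rises. The change was at least 4-fold for 445 called genes upward and for 51 downward. GFP− cells changed on a similar scale over the same hour, with 1932 genes higher (16.1%) and 1369 lower (11.4%). Of the genes higher in GFP+ cells, 76.8% were also higher in GFP− cells, and of those higher in GFP− cells 81.2% were higher in GFP+ cells. For genes that fell the shares were 72.4% and 80.9%. Across the 11982 genes the changes in GFP+ and GFP− cells correlated at r = 0.880, a description over genes, which are not independent replicates. The direct test of the difference between both changes called 387 genes as more upward in GFP+ cells (3.23%) and 289 as more downward (2.41%), and without t3 replicate 3 it called 479 (4.00%) and 378 (3.15%). Of the 2042 genes that rose, 308 were among the 387, and of the 1531 that fell, 146 were among the 289.

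**Figure D1:**
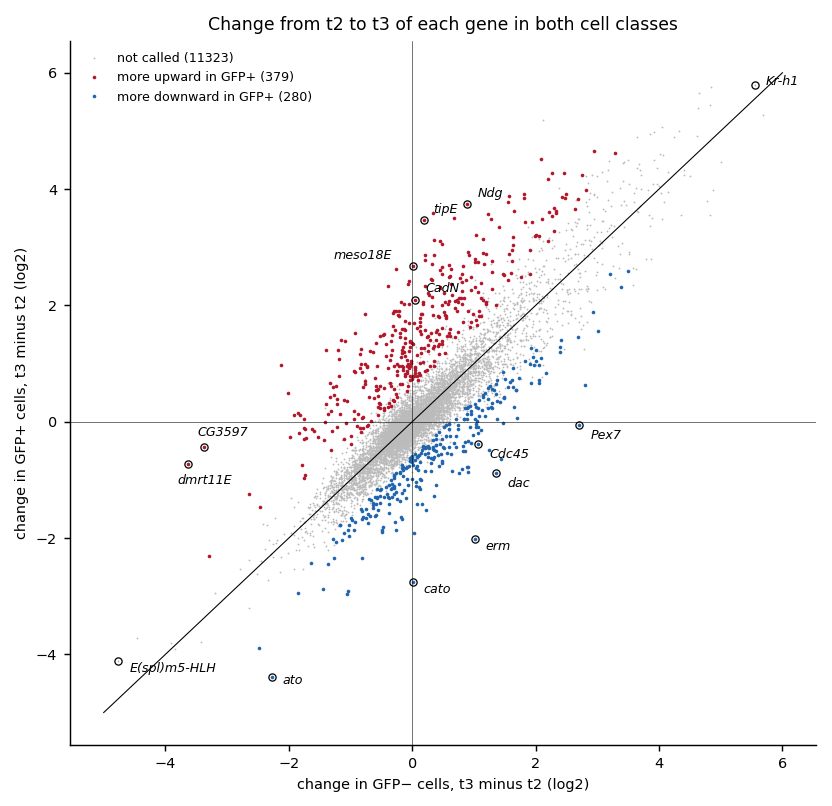
Change in level from t2 to t3 (log2) of each gene in GFP+ cells (vertical axis) against that in GFP− cells (horizontal axis), with each gene at its brightest probe set; the diagonal marks equal change. Red points (379) changed more upward in GFP+ than in GFP− cells and blue points (280) more downward, and most other genes lie along the diagonal (r = 0.880).

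The gene that defines the sort had the largest fall of all called genes. *ato* stood at 8.15, 7.91, 7.77 and 8.56 in the t3 GFP+ arrays, against 12.33, 12.43, 12.65 and 12.56 in the t2 GFP+ arrays. The highest t3 array lay far below the lowest t2 array. The fall was 21.0-fold (log2 −4.39, SE 0.16, adjusted p = 1.4e-19), and it was also seen in GFP− cells, where the level was 6.41 ± 0.49 (SD, n = 3) at t3 and 8.69 ± 0.17 (SD, n = 4) at t2. *ato* fell more in GFP+ than in GFP− cells, by 2.12 on the log2 scale (SE 0.24, adjusted p = 1.7e-07). Its relative *cato*, a bHLH gene of sensory precursors, stood at 7.77, 8.14, 7.55 and 8.65 at t3, against 10.55, 10.70, 10.92 and 10.94 at t2. *cato* fell 6.71-fold in GFP+ cells (log2 −2.75, SE 0.16) and gave 0.01 in GFP− cells.

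Of 9 genes of the *ato* family 2 rose and 3 fell, and of 4 *achaete-scute* genes none rose and 2 fell, where 17.0% of all genes rose and 12.8% fell. *tap*, a bHLH gene of the Neurogenin type, was 9.04-fold higher at t3 (log2 3.18, SE 0.21, adjusted p = 7.5e-14), and *Fer1* 2.28-fold. *amos*, the proneural gene of olfactory sensilla and a class of dendritic neurons, was 2.76-fold lower, at 4.46 to 4.67 in the t3 arrays and 5.74 to 6.28 in the t2 arrays. *l(1)sc* fell 4.95-fold (log2 −2.31, SE 0.12) and *ac* 2.37-fold. *sc*, which selects external sense organs, was not called in GFP+ cells (log2 −0.12, SE 0.15, adjusted p = 0.49), while in GFP− cells it differed by −1.62. For *ac*, *l(1)sc* and *sc* the change was more upward in GFP+ than in GFP− cells, by 0.99 to 1.49.

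**Figure D2:**
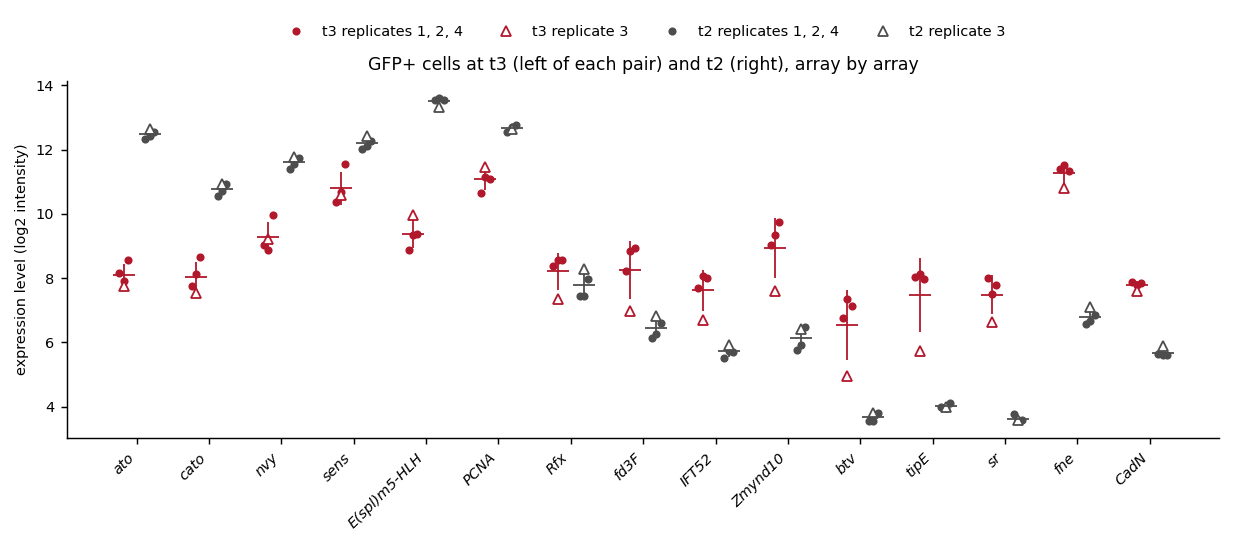
Level (log2 intensity) of 15 genes in each GFP+ array, with t3 on the left of each pair in red and t2 on the right in grey; the dash and bar are the mean and SD of 4 arrays, and triangles mark replicate 3. *ato*, *cato* and *nvy* lie lower at t3 in every array, *tipE* and *btv* lie higher in every array with replicate 3 lowest, and the groups overlap for *Rfx*.

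Transcripts that respond to Notch fell in both cell classes. Of 13 measured genes of the *Enhancer of split* complex and the *Bearded* family 11 fell and none rose in GFP+ cells, with a list median of −1.93. The median of all genes was −0.09, and 12.8% of all genes fell in GFP+ cells and 11.4% in GFP− cells. In GFP− cells 11 fell as well (median −2.23), and for no member was a difference between both changes called, although 3 were called more upward in GFP+ cells when same-numbered GFP+ and GFP− arrays were paired as a fixed block, and none as a random block. *E(spl)m5-HLH*, a bHLH repressor, stood at 8.87, 9.33, 9.96 and 9.38 at t3, against 13.53, 13.62, 13.33 and 13.54 at t2. It fell 17.4-fold (log2 −4.12, SE 0.19, adjusted p = 3.0e-17). *Brd*, whose product inhibits the ubiquitin ligase Neuralized, fell 15-fold (log2 −3.90, SE 0.19), and *E(spl)m4-BFM* 13.1-fold. Smaller falls were those of *BobA* (5.17-fold) and *Tom* (1.64-fold). *E(spl)m3-HLH* was not called (log2 −0.16, SE 0.21, adjusted p = 0.54). Of 8 measured components of the pathway itself, *neur* and *pen-2* fell, while *fng*, which glycosylates Notch, rose 6.37-fold.

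Genes of the sensory precursor were divided. Of 13 measured genes 5 fell and 2 rose, and without t3 replicate 3, 5 fell and 4 rose. Of all genes 12.8% fell and 17.0% rose. *nvy*, which encodes a co-repressor, stood at 9.04, 8.89, 9.22 and 9.95 at t3, against 11.41, 11.55, 11.77 and 11.74 at t2, a fall of 5.07-fold (log2 −2.34, SE 0.14). *sens*, a zinc-finger gene that sustains proneural expression in the precursor, stood at 10.36, 10.69, 10.59 and 11.54 at t3, against 12.01, 12.11, 12.41 and 12.28 at t2. It fell 2.65-fold (log2 −1.41, SE 0.17, adjusted p = 3.9e-08). *phyl* (2.87-fold), *meru* (2.48-fold) and *neur* (2.01-fold) fell as well. *spdo*, a Notch regulator of asymmetric division, did not pass (log2 0.10, SE 0.15, adjusted p = 0.58). *cpo*, an RNA-binding protein gene of sensory precursors, was called through a second probe set (log2 0.84, SE 0.26, adjusted p = 0.0079), and its brightest probe set gave 0.07 (adjusted p = 0.78). Of the 13 genes 5 changed more downward in GFP+ than in GFP− cells and none more upward (5 and 1 without t3 replicate 3). Of all genes 2.41% changed more downward and 3.23% more upward.

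The regulators *fd3F* and *Rfx* and the ciliary gene *dila* were not called lower at t3. *fd3F*, a Forkhead gene of chordotonal neurons, stood at 8.22, 8.84, 6.98 and 8.93 at t3, against 6.13, 6.25, 6.82 and 6.62 at t2. All t3 arrays were above all t2 arrays, and the rise was 3.46-fold (log2 1.79, SE 0.29, adjusted p = 4.1e-06). A second, dimmer *fd3F* probe set gave 0.07 (adjusted p = 0.53). *Rfx*, the regulator of ciliary genes through the X box, stood at 8.38, 8.57, 7.36 and 8.56 at t3, against 7.44, 7.44, 8.28 and 7.99 at t2. The groups overlapped and *Rfx* was not called (log2 0.43, SE 0.21, adjusted p = 0.093). Without t3 replicate 3 it was (log2 0.71, adjusted p = 0.0021). *dila*, a centrosomal and ciliary gene, stood at 9.22, 9.59, 7.94 and 9.59 at t3, against 7.81, 8.24, 8.59 and 8.61 at t2. It gave 0.77 (SE 0.26, adjusted p = 0.015) with all arrays and 1.15 (adjusted p = 4.1e-05) without t3 replicate 3. In GFP− cells *fd3F* gave 0.37, and *Rfx* and *dila* were higher at t3, by 1.41 and 1.94. The difference between both changes of *fd3F* was not called with all arrays and was called upward without t3 replicate 3. *Rfx* is represented here by the 33-base oligonucleotide that the study designed as a gel retardation probe, because it carries the E box studied as an ATO binding motif in a gene whose transcript did not fall with *ato*. *Rfx* lies on chromosome arm 3R. The capitals mark the E box, CANNTG, at bases 17 to 22 from the 5′ end.
*Rfx* E box probe: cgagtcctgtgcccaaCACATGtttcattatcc

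Genes of the ciliary transport machinery rose in GFP+ cells and mostly not in GFP− cells. All 10 measured IFT-B genes rose (median log2 1.46), 4 of 5 IFT-A genes (0.67), 4 of 6 BBSome genes (0.80) and 4 of 4 ciliary motor genes (1.59). None fell. Over these 25 genes 22 were called upward in GFP+ cells, where 17.0% of all genes were, and in GFP− cells 2 were, where 16.1% of all genes were. The change of 14 was more upward in GFP+ than in GFP− cells (18 without t3 replicate 3), where 3.23% of all genes were, and of none more downward. The list was written with these genes' enrichment in GFP+ cells known, so its direction is a description.

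*Ttc26* had the largest rise of the IFT-B genes, at 8.23, 8.74, 6.49 and 8.34 in the t3 arrays, against 5.25, 5.38, 5.99 and 5.58 in the t2 arrays (5.28-fold, log2 2.4, SE 0.29). *IFT52* stood at 7.71, 8.06, 6.69 and 8.01 at t3, against 5.52, 5.75, 5.91 and 5.70 at t2 (3.73-fold, log2 1.90, SE 0.20, adjusted p = 1.5e-09). In GFP− cells *IFT52* was 5.62 ± 0.28 (SD, n = 3) at t3 and 5.89 ± 0.06 (SD, n = 4) at t2. For both genes all t3 arrays exceeded all t2 arrays, with replicate 3 the lowest of the t3 arrays. *Ttc30* (3.63-fold), *IFT20* (3.27-fold) and *Oseg2* (3.02-fold) rose as well. *nompB*, a transport gene needed for mechanosensory cilia, had the smallest rise of the complex (1.72-fold, log2 0.78, SE 0.14). *IFT46* overlapped, at 7.36, 8.21, 6.24 and 8.05 at t3 and 5.76, 5.83, 6.81 and 6.58 at t2, and was called (2.33-fold, adjusted p = 0.00019).

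Of the IFT-A genes, *rempA* stood at 5.95, 6.4, 4.64 and 5.86 at t3, against 4.27, 4.39, 4.44 and 4.17 at t2 (2.63-fold, log2 1.40, SE 0.18). *Oseg4* was the exception in the complex. It stood at 9.32, 9.24, 8.31 and 9.21 at t3, against 8.86, 8.86, 9.13 and 9.27 at t2 (log2 −0.01, SE 0.14, adjusted p = 0.97). Among the BBSome genes, which act in membrane traffic into the cilium, *Arl6* rose 2.19-fold and *BBS5* 1.96-fold, while *BBS1* (log2 −0.01) and *BBS9* (log2 −0.07) were not called. *btv*, the heavy chain of the dynein that carries cargo back down the cilium, stood at 6.76, 7.35, 4.96 and 7.12 at t3, against 3.55, 3.55, 3.81 and 3.82 at t2. The rise was 7.30-fold (log2 2.87, SE 0.26, adjusted p = 6.0e-11), the largest among the 25 transport genes. The kinesin-II genes *Klp68D* (2.12-fold) and *Kap3* (2.60-fold) rose too, and unlike the rest they also rose in GFP− cells, by 1.25 and 1.12. At the base of the cilium 5 of 9 measured genes rose (6 without t3 replicate 3), where 17.0% of all genes rose. *Cep290*, a transition zone gene, was 5.15-fold higher (log2 2.37, SE 0.23), and *Root*, the rootlet gene, was 2.72-fold higher in GFP+ cells and by 1.93 on the log2 scale in GFP− cells.

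**Figure D3:**
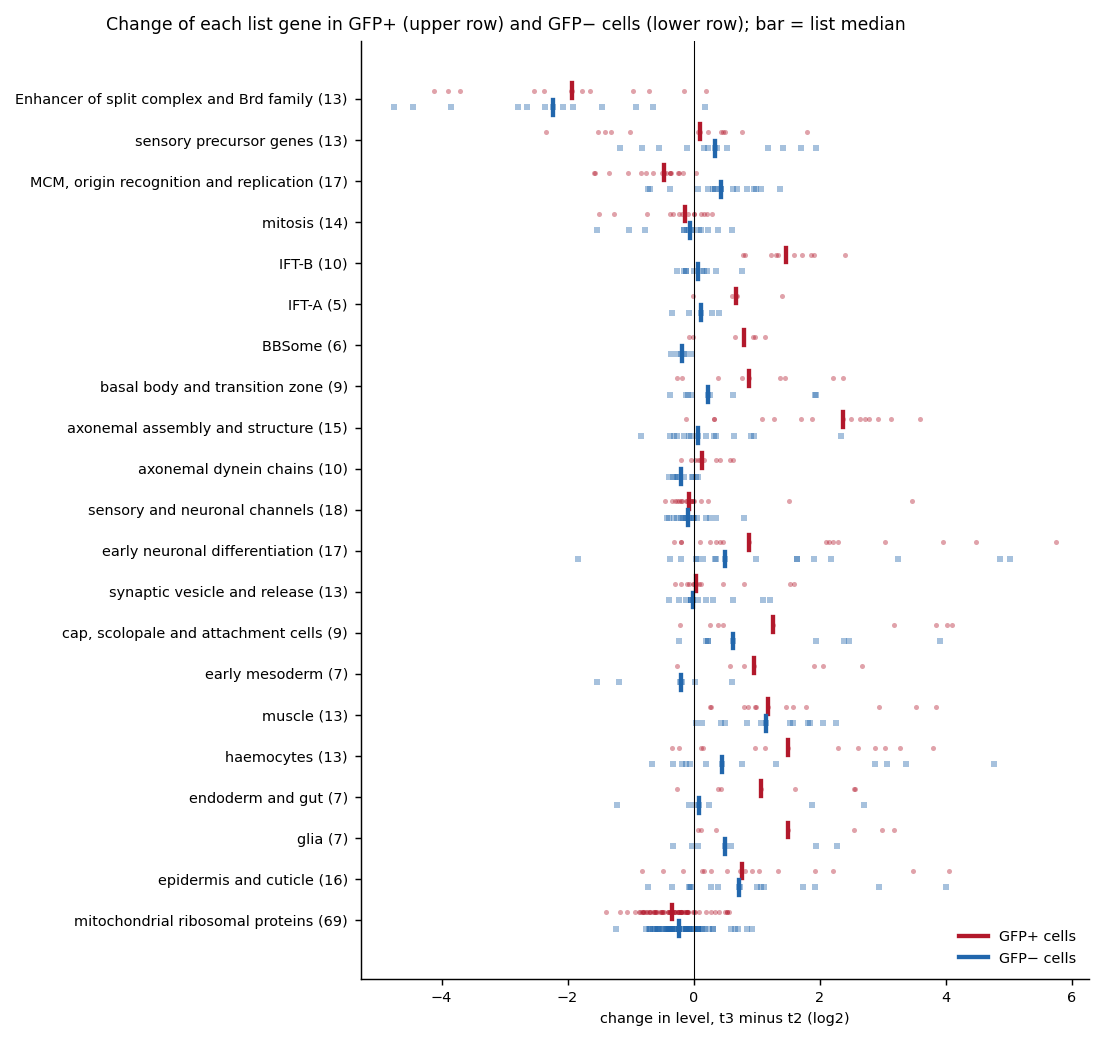
Change in level from t2 to t3 (log2) of each gene of 21 lists, with the number of measured genes in brackets; for each list the upper row in red is GFP+ cells and the lower row in blue GFP− cells, small points are genes and bars are list medians. IFT-B genes have medians of 1.46 in GFP+ and 0.07 in GFP− cells, and replication genes −0.47 and 0.43.

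Genes for assembling the motile axoneme, which chordotonal cilia retain, rose as well. Of 15 measured genes 12 rose and none fell in GFP+ cells (median log2 2.36), and in GFP− cells 3 rose and 1 fell (median 0.06). Of all genes 17.0% rose and 12.8% fell in GFP+ cells, and 16.1% and 11.4% in GFP− cells. For 11 of the 15 the change was more upward in GFP+ cells (13 without t3 replicate 3), where 3.23% of all genes were. Like the other lists, this one was written with earlier results of these data known, so its direction is a description. *Zmynd10*, needed to pre-assemble dynein arms, stood at 9.03, 9.33, 7.61 and 9.76 at t3, against 5.77, 5.93, 6.43 and 6.48 at t2 (6.87-fold, log2 2.78, SE 0.26). *Dnaaf3*, of the same process, was 5.14-fold higher and *Ccdc114*, a dynein docking gene, 7.57-fold (log2 2.92, SE 0.33). *CG17564* (8.75-fold), *CG6980* (6.60-fold) and *CG3085* (6.19-fold) rose too. *Dnaaf5* had the largest rise (12-fold, log2 3.59) and rose in GFP− cells as well, by 2.33. The dynein chains themselves were mostly not called. Of 10 measured axonemal dynein chain genes 1 rose, *ODA-Dnal1* (1.53-fold), and none fell (median log2 0.13), with 2 called upward without t3 replicate 3. *Dhc62B* gave 0.57 (SE 0.14, 1.48-fold) with all arrays and passed without t3 replicate 3 (log2 0.77). *Dhc93AB* gave −0.20 (SE 0.13, adjusted p = 0.20).

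Channel genes were mostly at low levels at both times. Of 18 measured sensory and neuronal channel genes 2 rose, none fell, and 16 had a t3 mean under a log2 level of 6. Of all genes 17.0% rose and 12.8% fell. *pdm3*, 1 of the 2 that rose, encodes a POU factor and not a channel. *tipE*, an auxiliary subunit of the voltage-gated sodium channel, stood at 8.03, 8.12, 5.74 and 7.98 at t3, against 3.98, 3.97, 3.98 and 4.13 at t2. The rise was 11-fold (log2 3.46, SE 0.29, adjusted p = 1.6e-11), and 4.03 on the log2 scale without t3 replicate 3. In GFP− cells *tipE* was 3.76 ± 0.16 (SD, n = 3) at t3 and 3.56 ± 0.15 (SD, n = 4) at t2. The chordotonal TRPV channel genes *nan* and *iav* were at low levels at both times. *nan* was at 4.45 to 4.76 at t3 and at 4.67 to 4.75 at t2 (log2 −0.10, SE 0.07), and *iav* was at 4.30 to 4.51 and 4.35 to 4.52 (log2 −0.01, SE 0.08). Without t3 replicate 3 the numbers of genes called upward were 42 of the 59 in the 7 ciliary lists, against 40 with it, and none was called downward in either case. Over all genes the shares called upward were 17.3% without that array and 17.0% with it.

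Early neuronal genes rose in both cell classes. Of 17 measured 10 rose in GFP+ cells and none fell (median log2 0.87), where 17.0% of all genes rose, and in GFP− cells 9 rose and 1 fell (median 0.50), where 16.1% rose. The change was more upward in GFP+ cells for 3 of them, and for 6 without t3 replicate 3, where 3.23% and 4.00% of all genes were. *Nrg* was counted as a rise through another probe set (log2 0.77), and its brightest gave 0.10. *Ank2*, a neuronal ankyrin that anchors membrane proteins to the cytoskeleton, stood at 10.19, 10.29, 9.58 and 10.01 at t3, against 3.96, 4.42, 4.39 and 4.31 at t2. It was 53.7-fold higher at t3 (log2 5.75, SE 0.29), and 2 of its 4 other probe sets rose too (log2 5.30 and 1.29) while 2 were not called. *fne*, a neuronal RNA-binding protein gene, rose 22.1-fold (log2 4.47, SE 0.30) and *onecut*, a homeobox gene, 15.5-fold. *nerfin-1*, a zinc-finger gene of newly born neurons, stood at 10.85, 11.20, 11.34 and 11.18 at t3, against 8.12, 8.13, 8.18 and 8.02 at t2 (8.16-fold, log2 3.03, SE 0.18). *elav*, the pan-neuronal marker, was bright at both times (11.44 to 11.80 at t3, 11.05 to 11.22 at t2) and at 1.39-fold did not reach the limit. *CadN*, the neuronal cadherin, rose more in GFP+ than in GFP− cells. Its GFP+ arrays were at 7.87, 7.78, 7.61 and 7.86 at t3, against 5.63, 5.62, 5.88 and 5.60 at t2 (4.28-fold, log2 2.10, SE 0.10, adjusted p = 1.8e-17), while in GFP− cells it was 7.57 ± 0.02 (SD, n = 3) at t3 and 7.53 ± 0.21 (SD, n = 4) at t2.

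Of 13 measured synaptic genes 4 rose in GFP+ cells and none fell (5 and none without t3 replicate 3), where 17.0% of all genes rose. The list median was 0.03, and 10 had a t3 mean under a log2 of 6. *cpx* was counted as a rise through a second probe set (log2 1.75), and its brightest gave 0.01. In GFP− cells 4 synaptic genes rose and none fell, where 16.1% of all genes rose. For none was a difference between both changes called, and 1 was more upward in GFP+ cells without t3 replicate 3. *Rop*, which acts in vesicle fusion, rose 3.01-fold and *Rab3*, of the vesicle itself, 2.89-fold. *brp*, a component of the release site, was at 5.72 to 6 at t3 and 5.84 to 6.07 at t2 (log2 −0.07, SE 0.09), and *nSyb*, a vesicle fusion protein gene, was at 4.80 to 4.99 and 4.97 to 5.17. Of 16 measured axon guidance genes 6 rose and 1 fell in GFP+ cells (7 and 1 without t3 replicate 3), beside 17.0% and 12.8% of all genes. In GFP− cells 5 rose and 1 fell, beside 16.1% and 11.4%. The change of 2 was more upward in GFP+ cells and of none more downward (2 and 1 without t3 replicate 3), beside 3.23% and 2.41% of all genes. *beat-Ia*, which lets motor axons part from each other, was 14.2-fold higher (log2 3.83, SE 0.18) and *NetB*, a Netrin, 3.55-fold. The Netrin receptor gene *unc-5* was 1.66-fold lower.

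Genes of the support cells rose. Of 9 measured markers of cap, scolopale and attachment cells and their precursors 6 rose and none fell (median log2 1.26), and in GFP− cells 4 rose (median 0.63), beside 17.0% and 16.1% of all genes. *alphaTub85E*, the tubulin of ligament and cap cells, stood at 10.25, 10.51, 8.28 and 9.33 at t3, against 5.54, 5.59, 5.71 and 5.51 at t2 (16.1-fold, log2 4.01, SE 0.36). *sr*, the tendon cell gene, was 14.4-fold higher (log2 3.85, SE 0.21) and *tx*, its partner in attachment cells, 17-fold (log2 4.09, SE 0.18). *repo*, the homeobox gene of glia that also marks ligament cells, stood at 10.06, 10.58, 10.23 and 10.54 at t3, against 6.26, 7.21, 7.64 and 7.57 at t2 (9.08-fold). In GFP− cells *sr*, *alphaTub85E*, *tx* and *repo* were also higher at t3, by 2.47, 2.38, 3.90 and 1.94. *Sox15*, a cap cell gene, rose 2.39-fold by its brighter probe set (log2 1.26, SE 0.17), and its other probe set gave −0.28 (adjusted p = 0.051). *nompA*, which encodes the dendritic cap protein of scolopale cells, was called upward through its second probe set (log2 1.69, SE 0.25, adjusted p = 1.3e-06), whereas the brighter over all arrays gave −0.22.

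More replication genes fell than rose in GFP+ cells, and more rose than fell in GFP− cells. Of 17 measured genes of the MCM helicase, the origin recognition complex and DNA synthesis, 7 fell and none rose in GFP+ cells (median log2 −0.47; 8 fell without t3 replicate 3), where 12.8% of all genes fell. In GFP− cells 7 rose and 2 fell (median 0.43), beside 16.1% and 11.4% of all genes. The difference of both changes was called downward for 16 of the 17, where 2.41% of all genes were, and for all 17 without t3 replicate 3. *PCNA*, the polymerase clamp, stood at 10.65, 11.14, 11.45 and 11.08 at t3, against 12.55, 12.71, 12.64 and 12.75 at t2, a fall of 3.00-fold (log2 −1.58, SE 0.10, adjusted p = 1.7e-14). *Orc4* fell 2.98-fold, *Orc5* 2.56-fold, *CycE*, which drives entry into S phase, 2.05-fold, and *Cdc6*, which loads the helicase, 1.79-fold. *CycE* was 9.91, 10.07, 10.47 and 10.92 at t3 and 11.38, 11.38, 11.46 and 11.28 at t2 in GFP+ cells, and in GFP− cells it was 10.51 ± 0.04 (SD, n = 3) and 10.45 ± 0.09 (SD, n = 4). *Cdc45*, *RnrL* and *Mcm3* did not pass in GFP+ cells (log2 −0.38, −0.37 and −0.23) and were higher at t3 in GFP− cells, by 1.07, 0.95 and 0.98. *Orc1* gave 0.04 (SE 0.09) in GFP+ cells and 1.37 in GFP− cells.

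For mitotic genes no such difference was called. Of 14 measured 3 fell and none rose in GFP+ cells, and in GFP− cells 3 fell and 1 rose. Of all genes 12.8% fell and 17.0% rose in GFP+ cells, and 11.4% and 16.1% in GFP− cells. *aurB*, *mad2* and *borr*, which act at the kinetochore and in chromosome segregation, fell 2.85-fold, 2.39-fold and 1.68-fold. Among 7 genes of cell cycle exit and G1, *fzr*, the activator of the anaphase-promoting complex that holds cells in G1, rose 2.12-fold (11.38 to 11.61 at t3, 10.42 to 10.53 at t2), *esg* 1.85-fold and *CycD* 1.62-fold, with *fzr* 0.92 higher in GFP− cells as well.

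The largest falls beside those of *ato*, *cato* and the Notch-responsive genes included genes known from earlier stages of the embryo. *halo*, which acts in lipid droplet transport in the blastoderm, stood at 4.91, 4.49, 5.11 and 5.42 at t3, against 8.92, 9.10, 8.70 and 8.76 at t2, a fall of 14.8-fold (log2 −3.89, SE 0.13). *gt*, a gap gene, was 6.03 to 6.28 at t3 and 8.83 to 9.46 at t2 (7.51-fold lower, log2 −2.91, SE 0.10), and its second probe set was 2.49-fold lower. *phtm*, an enzyme of ecdysone synthesis, was 4.39 to 4.6 at t3 and 7.29 to 7.63 at t2 (7.83-fold lower). *dib* (5.82-fold), *sad* (5.38-fold) and *spo* (2.31-fold) of the same pathway fell with it, while the ecdysone receptor gene *EcR* rose 2.70-fold and its target *Hr3* 4.90-fold. The changes in GFP− cells had the same directions. They were −1.06 for *phtm*, −1.91 for *dib*, −1.64 for *sad*, −0.77 for *spo*, 1.04 for *EcR* and 2.43 for *Hr3*. The other genes among the 15 largest falls were *CG13454* (14-fold), *CG15480* (13.8-fold), *CG4408* (9.17-fold), *CG14111* (7.75-fold), *CG43085* (7.65-fold), *CG13868* (7.33-fold) and *Septin5* (6.57-fold). All of them were also lower at t3 in GFP− cells, by 1.44 to 3.91 on the log2 scale.

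The largest rises were shared with the rest of the embryo. *Kr-h1*, a zinc-finger gene known as a mediator of juvenile hormone action, stood at 10.02, 9.39, 8.57 and 9.27 at t3, against 3.58, 3.56, 3.36 and 3.57 at t2. It rose 55.4-fold (log2 5.79, SE 0.29, adjusted p = 1.4e-16) and by 5.56 on the log2 scale in GFP− cells. *Dys*, the dystrophin gene, was 43.5-fold higher by its brightest probe set, and of its 4 other probe sets 1 rose (5.5-fold) and 3 were not called. *obst-A*, a chitin-binding protein gene, rose 39.0-fold, *Osi6* of the Osiris family 36.4-fold, *nrv1*, a sodium pump subunit, 33.4-fold and *vari*, a septate junction scaffold, 30.0-fold. *CG9184* (50.2-fold), *CG7675* (41.9-fold), *CG13377* (32.0-fold), *CG7896* (31.5-fold), *CG1607* (30.8-fold), *Alp1* (29.8-fold), *CG10591* (29.5-fold) and *CG13907* (25.2-fold) complete the 15 largest. For 14 of the 15 the GFP− change was called upward too. The exception was *Osi6*, with a change of 2.12 in GFP− cells (adjusted p = 0.066), and the only one of the 15 whose change was called as larger in GFP+ cells was *CG13907* (difference 1.71, SE 0.38, adjusted p = 0.0027). Over all genes 17.0% rose and 12.8% fell in GFP+ cells, and 16.1% and 11.4% in GFP− cells. Of 16 measured genes of epidermis and cuticle, 9 rose and 1 fell in GFP+ cells, with the same counts in GFP− cells, and for no member was the difference between the classes called. The counts without t3 replicate 3 were 10 that rose and 1 that changed more upward in GFP+ cells.

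The genes whose change differed most from that in GFP− cells were of several kinds. Upward, *tipE* (difference 3.26, SE 0.43, adjusted p = 3.1e-06), *CG34297* (3.24, SE 0.40) and *CG3085* (2.90, SE 0.28) rose in GFP+ cells and differed by 0.33 or less in either direction in GFP− cells. *CG34297* stood at 7.89, 8.43, 6.17 and 7.90 at t3, against 3.79, 3.56, 4.35 and 4.39 at t2. *Ndg* and *Ppn*, of the basement membrane and extracellular matrix, rose 13.4-fold and 11.3-fold, and their differences were 2.85 and 2.82. *Ndg* was 9.68, 9.79, 9.01 and 9.48 at t3 and 5.55, 5.78, 5.78 and 5.87 at t2, and in GFP− cells it was 9 ± 0.01 (SD, n = 3) and 8.11 ± 0.20 (SD, n = 4). In the remaining 3 of the 8 most upward the larger change was a fall in GFP− cells. *CG3597* gave −0.43 in GFP+ and −3.37 in GFP− cells, *dmrt11E*, a Doublesex-type factor, gave −0.73 and −3.63, and *CG7763* gave 0.97 and −2.12. Without t3 replicate 3, *CG7763* was no longer called in GFP+ cells (0.70, adjusted p = 0.027).

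Downward, *erm*, which acts in neural progenitors of the brain, had the largest difference (−3.03, SE 0.19, adjusted p = 4.0e-12). It stood at 6.57, 6.59, 6.30 and 6.88 in GFP+ cells at t3, against 8.39, 8.45, 8.86 and 8.73 at t2, and was 1.01 higher at t3 in GFP− cells. *dac* and *ss*, which pattern the eye and the antenna, gave differences of −2.24 and −2.08. *dac* stood at 8.97, 8.76, 8.20 and 9.47 at t3 and 9.60, 9.71, 9.87 and 9.74 at t2 in GFP+ cells, a fall of 1.84-fold, and was 1.36 higher at t3 in GFP− cells. *ss* fell 1.55-fold and did not pass without t3 replicate 3 (log2 −0.41, adjusted p = 0.058). *Pex7*, the import receptor of peroxisomes, was level in GFP+ cells (log2 −0.05, SE 0.22) and 2.71 higher at t3 in GFP− cells. *CG32037* fell 3.79-fold in GFP+ cells and gave 0.03 in GFP− cells. *CG9095* gave 0.63 (adjusted p = 0.034) in GFP+ cells and 2.8 in GFP− cells. *cato* and *ato* complete the 8.

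**Figure D4:**
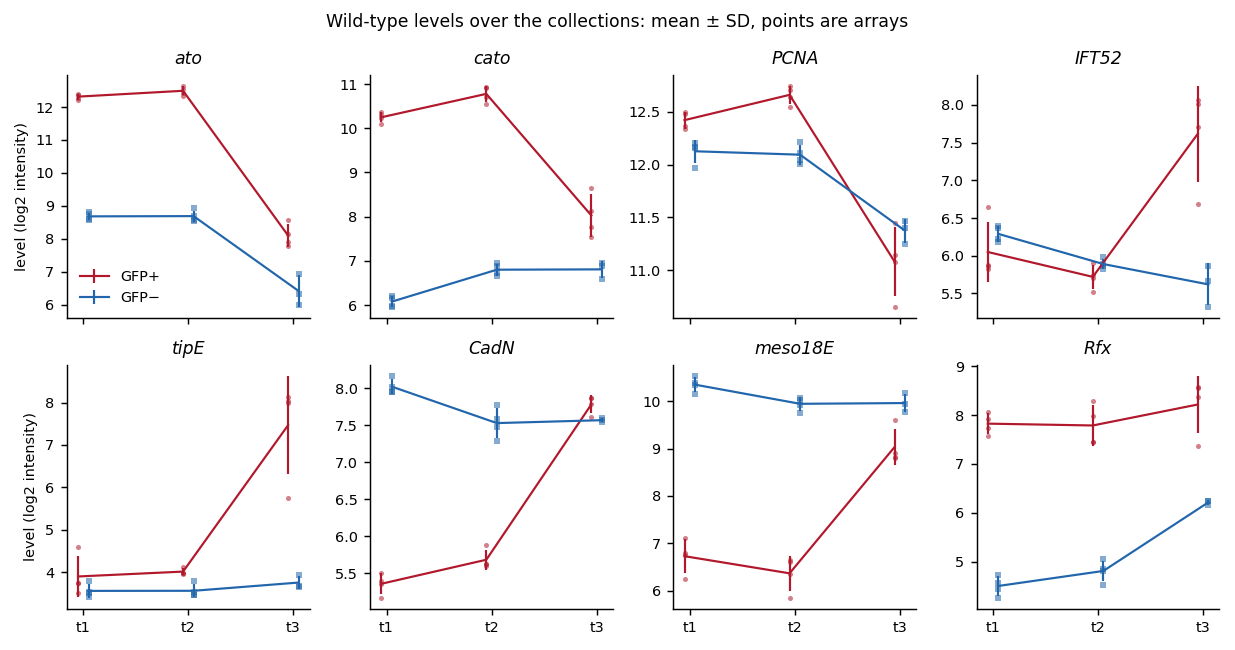
Levels (log2 intensity, mean ± SD, points are arrays) of 8 genes at t1, t2 and t3 in GFP+ cells (red circles, n = 4 at each time) and GFP− cells (blue squares, n = 4, 4 and 3). In GFP+ cells *ato* (0.18), *IFT52* (−0.33) and *tipE* (0.11) were not called between t1 and t2 and changed by −4.39, 1.90 and 3.46 from t2 to t3, and *Rfx* lies between 7.36 and 8.57 in the t2 and t3 GFP+ arrays.

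Head patterning genes, of interest because the sort includes the eye primordium, were called in both directions. Of 16 measured genes of head appendages 4 rose and 4 fell (6 and 2 without t3 replicate 3), and of 12 of the larval eye 6 rose and 4 fell, where 17.0% of all genes rose and 12.8% fell. *toy* was counted among the falls of the eye list through a probe set other than its brightest, which gave 0.04. *svp*, which encodes a nuclear receptor, was 1.72-fold lower at t3 in GFP+ cells (9.07, 9.28, 9.61 and 9.89, against 10.23, 10.19, 10.16 and 10.40 at t2) and 0.89 higher at t3 in GFP− cells. *eyg* rose 2.38-fold, *oc*, the orthodenticle gene, 2.01-fold and *gl*, of photoreceptors, 2.78-fold. *Dll* fell 1.53-fold and gave −0.37, short of the limit, without t3 replicate 3. Of 15 genes of brain and neuroblast progenitors 3 rose and 2 fell in GFP+ cells (4 and 2 without t3 replicate 3), shares near those of all genes. *ham*, a zinc-finger gene of sensory and olfactory lineages, rose 14.8-fold (log2 3.88, SE 0.28), the largest change of that list. Against GFP− cells 1 of these 15 genes changed more upward and 4 more downward (1 and 5 without t3 replicate 3). For head appendages the counts were 3 and 5, and for the larval eye 2 and 4. Of all genes 3.23% changed more upward and 2.41% more downward.

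Genes known from other tissues rose in the GFP+ cells as well. The glia list shares *repo*, which also marks ligament cells, with the support cell list above. Over the lists for early mesoderm, muscle, haemocytes, endoderm and glia, 32 of 46 measured genes were higher at t3 in GFP+ cells and none was lower, where 17.0% and 12.8% of all genes were. The count of higher genes was also 32 without t3 replicate 3. In GFP− cells 21 were higher and 4 lower, beside 16.1% and 11.4% of all genes, and 18 changed more upward in GFP+ cells, where 3.23% of all genes did. None changed more downward with all arrays, and 1 did without t3 replicate 3. Among the 18, *bap* and *hkb* were not called higher in GFP+ cells (log2 −0.26 and 0.39), and they differed by −1.53 and −1.22 in GFP− cells. *meso18E*, an early mesoderm gene, stood at 8.81, 8.90, 9.60 and 8.83 at t3, against 6.65, 6.60, 5.85 and 6.36 at t2 (6.36-fold, log2 2.67, SE 0.18), while in GFP− cells it was 9.97 ± 0.19 (SD, n = 3) and 9.95 ± 0.14 (SD, n = 4). *zfh1* rose 4.15-fold, and *lmd*, needed for myoblast fusion, stood at 9.11, 9.72, 10.85 and 9.60 at t3, against 8.10, 8.17, 7.62 and 7.76 at t2 (3.76-fold). *twi*, which specifies mesoderm, was 6.83, 7.18, 8.22 and 7.34 at t3 and 6.73, 6.69, 6.64 and 6.35 at t2 (1.73-fold), and was 1.18 lower at t3 in GFP− cells. Without t3 replicate 3 *twi* was not called (log2 0.51, adjusted p = 0.0023).

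Among blood genes, *srp*, the GATA gene of blood and fat body precursors, stood at 9.22, 9.34, 10.51 and 9.71 at t3, against 7.49, 7.36, 6.68 and 6.82 at t2 (6.09-fold, log2 2.61, SE 0.21). *vkg* and *Col4a1*, the collagen IV genes, rose 9.62-fold and 8.21-fold, *PPO2*, a crystal cell enzyme, 7.35-fold and *Pxn* 4.84-fold. *GATAe*, of endoderm, rose 5.82-fold. *gcm*, which directs glia and blood cells, rose 2.8-fold, *moody*, of surface glia, 5.82-fold and *wrapper*, of midline glia, 7.93-fold. Muscle genes rose in both classes, 11 of 13 in GFP+ and 9 of 13 in GFP− cells, beside 17.0% and 16.1% of all genes. They were mostly at low levels: 7 of the 13 had a t3 mean under a log2 of 6 in GFP+ cells, *Mlc2* among them (4.22 to 5.40 at t3, 3.56 to 3.76 at t2). Of the haemocyte genes *Hml*, *NimC1*, *lz* and *gcm2* were under 6 at t3.

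The summed linear level of these lists shows their scale. Early mesoderm genes summed to 4289 to 6764 in the t3 GFP+ arrays and 2470 to 3059 at t2, and in GFP− cells to 5939 to 8106 at t3 and 7277 to 8253 at t2. Haemocyte genes summed to 5673 to 9109 at t3 and 1786 to 2012 at t2 in GFP+ cells, and to 10662 to 11793 and 5488 to 6632 in GFP− cells. Glial genes summed to 9923 to 12115 at t3 and 5790 to 6855 at t2 in GFP+ cells, and to 8741 to 9713 and 6762 to 7890 in GFP− cells. In each list the GFP+ arrays of t3 lay above those of t2 without overlap. At t3 the GFP+ sums stayed below those of GFP− cells for haemocyte genes and lay above them for glial genes. The part of cells of these tissues in the changes of GFP+ cells was not tested. In bulk samples a change in the number of cells of a type and a change in RNA per cell cannot be told apart, which applies to every gene described here.

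The t3 arrays were not alike in these lists. Relative to the t2 mean, the median IFT-B gene was 1.74, 1.77 and 1.80 higher in t3 replicates 1, 2 and 4 and 0.57 higher in replicate 3. The median IFT-A gene was 0.73, 0.89 and 0.98 higher in replicates 1, 2 and 4 and level (0.00) in replicate 3. The median early mesoderm gene was 0.65, 0.73 and 1.11 higher in replicates 1, 2 and 4 and 1.62 higher in replicate 3, and the median endoderm gene 1.04, 0.85 and 0.57 against 1.79. The haemocyte and Notch-responsive lists differed less between arrays (1.38 to 1.62 and −2.04 to −1.63). Relative to the other t3 arrays, replicate 3 was thus lower in ciliary transport genes and higher in mesoderm genes. All 10 IFT-B genes, and *htl*, *lmd*, *meso18E* and *zfh1* of the mesoderm, were called both with this array and without it.

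**Figure D5:**
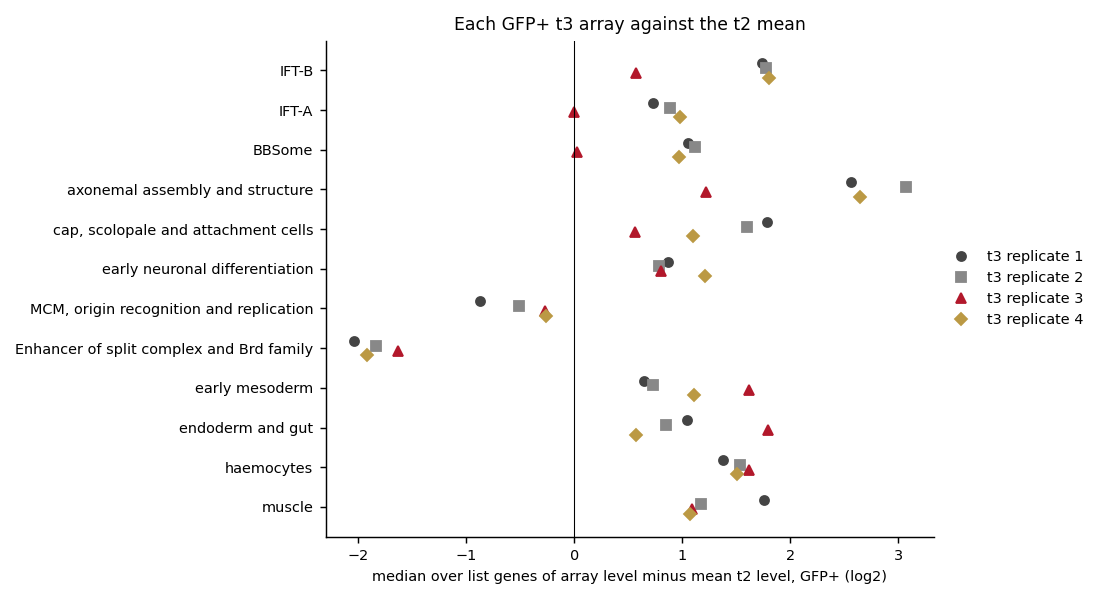
Median over the genes of each of 12 lists of the level in a GFP+ t3 array minus the mean t2 level (log2), with a symbol for each of the 4 t3 arrays. Replicate 3 (red triangles) is lowest for IFT-B (0.57) and axonemal assembly (1.22) and highest for early mesoderm (1.62) and endoderm (1.79).

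Of 9 heat shock genes 6 rose and 1 fell in GFP+ cells and 4 rose and 2 fell in GFP− cells. Of all genes 17.0% rose and 12.8% fell in GFP+ cells, and 16.1% and 11.4% in GFP− cells. These shares stand beside every list count of this paragraph. *Hsp68* gave −0.32 in GFP+ and −1.43 in GFP− cells, a difference called more upward in GFP+ cells (1.10, adjusted p = 0.0065). Without t3 replicate 3, 3 heat shock genes were called more upward in GFP+ cells. Of 7 genes known to respond to tissue dissociation *Atf3* (4.07-fold) and *puc* (2.15-fold) rose, as they did in GFP− cells (1.39 and 0.86). Of 10 measured glycolysis genes 3 rose and 1 fell (3 and 2 without t3 replicate 3), with a list median of 0.13. *Ald1* and *Eno* rose 14.9-fold and 4.94-fold, and *Gapdh1* fell 1.75-fold. *Pgk* was called more downward in GFP+ than in GFP− cells (difference −0.61). Of 9 measured genes of EGFR signalling 4 fell and 1 rose (2 and 2 without t3 replicate 3). The 1 that rose was *sty*, called through a probe set other than its brightest, which gave −0.25. *aos*, the secreted inhibitor of the receptor, fell 2.72-fold in GFP+ cells, more than in GFP− cells (difference −0.81, adjusted p = 0.00017), and *S*, which acts in ligand release and is also known as *Star*, fell 2.39-fold. Of 69 mitochondrial ribosomal protein genes 22 fell and none rose (median log2 −0.34), *mRpL1* by 2.26-fold, where 12.8% of all genes fell, and 25 fell without t3 replicate 3. Of 41 cytoplasmic ribosomal protein genes 3 fell and 2 rose (median −0.05; 4 and 2 without t3 replicate 3). *RpL3* among these rises and *mRpL47* among the mitochondrial falls were called through a probe set other than the brightest, which gave 0.24 and −0.25. For no mitochondrial ribosomal protein gene was the change in GFP+ cells called as different from that in GFP− cells, where the list median was −0.23, but without t3 replicate 3, 2 were called more downward in GFP+ cells.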

How the data were processed

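GFP+ and GFP− cells were sorted from dissociated embryos and their RNA was hybridised to Affymetrix Drosophila arrays. The deposited values are log2 intensities that the authors had normalised by RMA, with no depth per array. The labels name one-cycle labelling and the methods two-cycle labelling. Probe sets were named from the platform annotation, whose names can be old, and only those naming 1 gene were used.

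limma 3.58.1 in R 4.3.3 was fitted to 31 arrays with a mean for each of 8 groups, and contrasts were taken for t3 minus t2 in GFP+ cells, the same in GFP− cells, and their difference. Calls needed a 1.5-fold change and an adjusted p of at most 0.01. A gene was called when any probe set naming it alone was, and its printed value is that of its brightest probe set over all arrays. The precision is limited by the number of arrays. The fit was tested on simulated data with known changes.

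Named were *ato*, the 15 largest rises and falls whose t3 and t2 arrays did not overlap, the 8 largest differences from GFP− cells each way, and members of gene lists. The members and lists were chosen with earlier results of these data known. Other normalisations, array weights, thresholds, replicate blocks and left-out arrays were tried. A planned search of promoters was not run, since no promoter sequences were used here.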

Additional observations from a re-analysis of the deposited data

Results flagged for a closer look

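Among the named genes, 15 arrays of 256 groups of 4 stood apart from the other 3 arrays of their group by Dixon's test, which chance gives in about 1 of 20 groups. At t3 replicate 3 was the low array for *tipE* (5.74, others 7.98 to 8.12), *CG3085* (8.39, others 9.61 to 9.85), *Rfx* (7.36, others 8.38 to 8.57), *nompB* (4.59, others 5.45 to 5.57), *Oseg4* (8.31, others 9.21 to 9.32), *Root* (8.22, others 9.7 to 9.9) and *Arl6* (6.58, others 7.42 to 7.52), and the high array for *meso18E* (9.6, others 8.81 to 8.9). Replicate 4 was low for *Pxn* (7.32, others 7.94 to 8.02). At t2 replicate 3 was low for *Kr-h1* (3.36) and *E(spl)malpha-BFM* (12.89) and high for *CadN* (5.88), replicate 4 was high for *CG13454* (9.83) and *tipE* (4.13), and replicate 1 was high for *sr* (3.77).

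The change from t2 to t3 differed between GFP+ and GFP− cells for 387 genes upward and 289 downward, as tested in the limma model. Of the 128 named genes 41 were more upward and 29 more downward, beside 3.23% and 2.41% of all genes. Part of the named genes was chosen for this difference, and the lists with earlier results known, so these counts reflect that choice. The values here are the change in GFP+ minus that in GFP− cells (log2). In the cilium they were 2.17 for *IFT52*, 1.71 for *Ttc30*, 1.75 for *Oseg2*, 1.58 for *IFT20*, 0.91 for *nompB*, 1.1 for *rempA*, 1.26 for *Arl6*, 1.73 for *Cep290* and 2.52 for *btv*. Among axonemal genes they were 2.58 for *Zmynd10*, 2.41 for *CG6980*, 2.02 for *Ccdc114*, 2.44 for *Dnaaf3*, 2.77 for *CG17564*, 2.9 for *CG3085* and 0.87 for *Dhc62B*. Neuronal and support cell genes gave 3.26 for *tipE*, 2.06 for *CadN*, 1.39 for *nerfin-1*, 1.38 for *sr* and 1.07 for *Sox15*. Genes of mesoderm, blood and glia gave 2.65 for *meso18E*, 2.23 for *zfh1*, 2.13 for *lmd*, 1.97 for *twi*, 2.15 for *srp*, 0.98 for *Pxn*, 1.82 for *gcm* and 2.05 for *moody*.

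Proneural genes gave 0.99 for *amos*, 0.99 for *l(1)sc*, 1.4 for *ac* and 1.49 for *sc*, against −2.12 for *ato* and −2.76 for *cato*. Precursor genes gave −1.57 for *sens*, −1.52 for *nvy*, −1.21 for *meru*, −1.63 for *cpo* and −1.08 for *spdo*. Replication genes gave −0.86 for *PCNA*, −1.1 for *CycE*, −1.16 for *Cdc6*, −1.19 for *Orc2*, −1.19 for *Orc4*, −1.33 for *Orc1*, −1.44 for *Cdc45*, −1.32 for *RnrL*, −1.2 for *Mcm3* and −1.36 for *Mcm10*. Of the largest changes in GFP+ cells, *CG13907* gave 1.71, *halo* −1.41, *phtm* −1.91, *gt* −1.87, *CG43085* −1.09 and *CG13868* −1.43. The remaining upward values were 3.24 for *CG34297*, 3.09 for *CG7763*, 2.94 for *CG3597*, 2.9 for *dmrt11E*, 2.85 for *Ndg*, 2.82 for *Ppn* and 1.02 for *oc*. The remaining downward values were −3.03 for *erm*, −2.76 for *Pex7*, −2.24 for *dac*, −2.17 for *CG9095*, −2.08 for *ss*, −1.96 for *CG32037* and −1.67 for *svp*.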

How the results depend on the processing

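With a fold limit of 2 the genes higher and lower in GFP+ cells at t3 were 1208 and 651, and limma's treat against a 1.5-fold change called 1238 and 803. For the difference from GFP− cells treat called 119 upward and 36 downward. The upward and downward counts were 281 and 109 with a fold limit of 2, and 301 and 180 when only the groups compared were fitted. More genes were downward than upward with array weights (451 and 461) and with centring on ribosomal protein genes (325 and 361). The weights of GFP+ t3 replicates 3 and 4 were 0.42 and 0.43, and that of GFP− t3 replicate 3 was 0.46. Leaving out each array in turn gave 1984 to 2075 genes higher and 1432 to 1601 lower in GFP+ cells, and for the difference 343 to 479 upward and 208 to 433 downward. Without t3 GFP− replicate 3 the difference was called for 360 upward and 433 downward. With the replicate number as a replicate block in the fit of all groups the counts were 2043 and 1531, and 386 and 297 for the difference. Deviations of same-numbered t3 and t2 arrays correlated at 0.12, 0.01, −0.09 and 0.14, and 1 of 4 t3 arrays was closest to its own number. With 4 arrays in each group these values cannot decide whether equal numbers mark a shared batch. The study sorted GFP+ and GFP− cells in each run, and no source says that equal numbers mark a run. Deviations of same-numbered GFP+ and GFP− arrays correlated at 0.52, −0.03 and 0.32 at t3 and −0.02 to 0.06 at t2. With such pairs as a fixed replicate block, chosen after seeing the data, the difference was called for 504 genes upward and 372 downward, 371 and 266 of them among those called without it, and as a random block for 441 and 344. Cyclic loess moved the median change of all genes in GFP+ cells to 0.02, where it was −0.09 as deposited, with 2369 genes higher and 1213 lower. The named genes were checked only for the change in GFP+ cells, over the refits of that change. None reversed in any of these refits, and 103 of 128 kept the same call in all of them. Neither the fold limit of 2 nor the difference from GFP− cells was checked gene by gene. The causes of these shifts were not tested.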
